A study of Homo sapiens with 12 samples.

Results

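The genes described here are 34 targets and regulators of the transcription factor ATF4 and enzymes of serine, glycine and folate metabolism. They were taken as a list of symbols covering the integrated stress response and amino acid synthesis, with transporters and tRNA synthetases left out. The list was chosen with earlier results of these data known. All 34 were found among the 57820 gene identifiers of the count files, and 33 passed the filter on low counts. The one left untested was VLDLR, a lipoprotein receptor of which 1, 0 and 1 reads were counted in Kyse410 shUHRF1 libraries, 1, 0 and 0 in Kyse410 scramble, 0, 1 and 1 in TE10 shUHRF1 and 3, 2 and 6 in TE10 scramble. Over the 33 tested members the median of the mean level was 78 CPM (a gene's reads relative to the library's gene reads, scaled between libraries by the TMM method), against 21.2 CPM over the 16060 genes tested. The part of this higher level in the shares of members called below was not tested.

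Polyadenylated RNA was sequenced from Kyse410 and TE10, established cell lines of esophageal squamous cell carcinoma. The 4 groups were Kyse410 cells stably infected to express a short hairpin RNA against UHRF1 (Kyse410 shUHRF1), Kyse410 cells with a scramble control (Kyse410 scramble), and the same pair in TE10 (TE10 shUHRF1 and TE10 scramble), with 3 libraries each. UHRF1 reads hemimethylated DNA and brings the maintenance methyltransferase to newly copied DNA. All groups were stably infected, and the labels give no number of hairpin sequences or clones. Nor do they say whether replicate libraries had cultures of their own, so a p-value here speaks of the scatter among libraries, part of which may be technical.

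The integrated stress response starts with kinases that phosphorylate the initiation factor eIF2 when amino acids are scarce, unfolded protein builds up in the endoplasmic reticulum, double-stranded RNA is present or heme is lacking. General protein synthesis then falls, while the ATF4 message, which carries upstream reading frames, is translated more, so the ATF4 transcript is not a measure of the ATF4 protein. ATF4 pairs with C/EBP proteins on a composite DNA element and raises genes for amino acid synthesis and uptake and for tRNA charging, and feedback factors such as CHOP, TRIB3 and GADD34 are among its targets. Serine is made from a glycolytic intermediate by PHGDH, PSAT1 and PSPH. The SHMT enzymes then turn serine into glycine and pass a carbon unit to folate, which MTHFD enzymes interconvert in mitochondria and cytosol for purine and thymidylate synthesis.

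Each library held 7857662 to 12005229 reads assigned to genes. UHRF1 averaged 42.5 ± 0.892 CPM in Kyse410 shUHRF1 and 99.1 ± 3.47 CPM in Kyse410 scramble, a log2 fold change of −1.22 (SE 0.0573), and 85.9 ± 3.49 CPM in TE10 shUHRF1 and 178.5 ± 5.34 CPM in TE10 scramble, a log2 fold change of −1.06 (SE 0.0526) (mean ± SD, n = 3 each). Of 10 squamous epithelial markers, 8 exceeded 1 CPM in each group, and PKP1 and SOX2 stayed below that mean level in every group. The 10 markers summed to 1375.6 to 1442.6 CPM in Kyse410 shUHRF1, against 1176.3 to 1207 CPM in Kyse410 scramble, and to 726.9 to 749.2 CPM in TE10 shUHRF1, against 920.9 to 949.8 CPM in TE10 scramble. Among them the keratin gene KRT5 averaged 8.05 ± 0.455 CPM in TE10 shUHRF1 and 67.4 ± 1.06 CPM in TE10 scramble. KRT14 averaged 11.4 ± 0.986 CPM in TE10 shUHRF1 and 55.2 ± 1.34 CPM in TE10 scramble. KRT13 and PITX1 went the other way in TE10, with 314.3 ± 4.53 and 84.5 ± 6.25 CPM in shUHRF1, against 183.6 ± 4.83 and 73.4 ± 2.86 CPM in scramble (SD, n = 3 each). In Kyse410 the sum rose, but KRT14 and KRT17 fell, by 1.79 (SE 0.243) and 0.98 (SE 0.0633) on the log2 scale. KRT5 averaged 1.37 CPM in Kyse410 shUHRF1 and 1.14 CPM in Kyse410 scramble. The part of these shifts in the results was not tested. No blood cell marker reached 1 CPM, and the fibroblast genes COL1A2, COL3A1, DCN and LUM and the endothelial genes VWF, KDR and TEK were at or near 0, whereas COL1A1, PDGFRB and CDH5 were measured. The 7 fibroblast genes summed to 149.8 to 162.4 CPM in Kyse410 shUHRF1, against 113.8 to 123.8 CPM in Kyse410 scramble, and to 49.5 to 56.1 CPM in TE10 shUHRF1, against 43.9 to 47.8 CPM in TE10 scramble. The 4 endothelial genes, nearly all of it CDH5, summed to 91 to 105 CPM in Kyse410 shUHRF1, against 24.8 to 25.2 CPM in Kyse410 scramble, and to 12.5 to 15.1 CPM in TE10 shUHRF1, against 7.37 to 11.2 CPM in TE10 scramble, and their part in the results was not tested. Mitochondrially encoded messages took 2.79 to 2.86% of gene reads in Kyse410 shUHRF1, against 1.60 to 1.72% in Kyse410 scramble, and 4.52 to 5.18% in TE10 shUHRF1, against 5.32 to 5.42% in TE10 scramble. Leaving those messages out kept the counts of members called in Kyse410 at 21 higher and 9 lower and those in TE10 at 12 higher, with 5 in place of 4 lower. In bulk RNA, fewer cells with a transcript and less of it per cell cannot be told apart. The strand setting of the counting is not given, so reads of overlapping genes on opposite strands may have been shared. In the GENCODE annotation, 27.16% of the exonic bases of DDIT3 lie opposite MARS, 21.19% of those of ATF5 opposite NUP62, 27.19% of those of MTHFD2 opposite SLC4A5, 19.32% of those of GOT1 opposite AL391684.1 and 15.59% of those of PYCR1 opposite AC145207.4.

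The ATF4 element is usually written TGATGNAA, where N is any base. It was looked for on both strands in RefSeq promoter windows (GRCh38.p14, 250 bases before to 50 after each annotated start). Windows were at hand for 27 members, and 6 of them held it (22.2%), against 1217 of 27305 symbols (4.46%) and 3.62% of all 35116 windows. The 6 are shown because they are the members in which a reader can see the element itself. Each run is printed along the gene's own strand with the motif in capitals, and TTGCATCA is the same element on the opposite strand. A match describes the letters and is not evidence that ATF4 bound there. The members were listed around ATF4 targets, so their higher share is not an independent result. The 27 members had 43 windows, and a symbol with more windows has more room for a match.
ASNS (chr7:97872443-97872502, minus strand, motif 68 bases before the start): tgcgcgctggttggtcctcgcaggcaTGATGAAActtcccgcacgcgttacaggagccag
CEBPG (chr19:33374045-33374104, plus strand, motif 42 bases before the start): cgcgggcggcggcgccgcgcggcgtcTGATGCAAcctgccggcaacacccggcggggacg
JDP2 (chr14:75427980-75428021, plus strand, motif 16 bases before the start): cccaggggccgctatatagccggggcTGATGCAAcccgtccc
CHAC1 (chr15:40953236-40953295, plus strand, motif 209 bases before the start): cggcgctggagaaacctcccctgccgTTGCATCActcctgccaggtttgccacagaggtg
GOT1 (chr10:99430789-99430848, minus strand, motif 198 bases before the start): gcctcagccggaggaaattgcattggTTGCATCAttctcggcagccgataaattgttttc
MTHFD1L (chr6:150866346-150866375, plus strand, motif 129 and 90 bases before 2 annotated starts and past the start of the third): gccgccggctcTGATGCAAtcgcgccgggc

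The first question was how these genes stood in Kyse410 cells after UHRF1 silencing. Most of them changed, and most of the changes were rises: the whole serine and glycine route, the mitochondrial folate enzyme MTHFD2, and enzymes of asparagine, alanine, aspartate and cysteine synthesis were higher in shUHRF1 cells. ATF4 itself and several stress regulators around it were lower. Of the 33 members tested, 30 passed edgeR's quasi-likelihood test at an adjusted p of 0.05 (90.9%), 21 higher and 9 lower, while 49.3% of all genes tested passed, 22.6% higher and 26.7% lower. With a change of at least 1.5-fold as well, 14 members were higher and 2 lower, where 17% of all genes were called, 9.73% higher and 7.29% lower. The median log2 fold change over the members was 0.44, against −0.03 over all genes, and the median absolute value was 0.58 against 0.27.

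**Figure D1:**
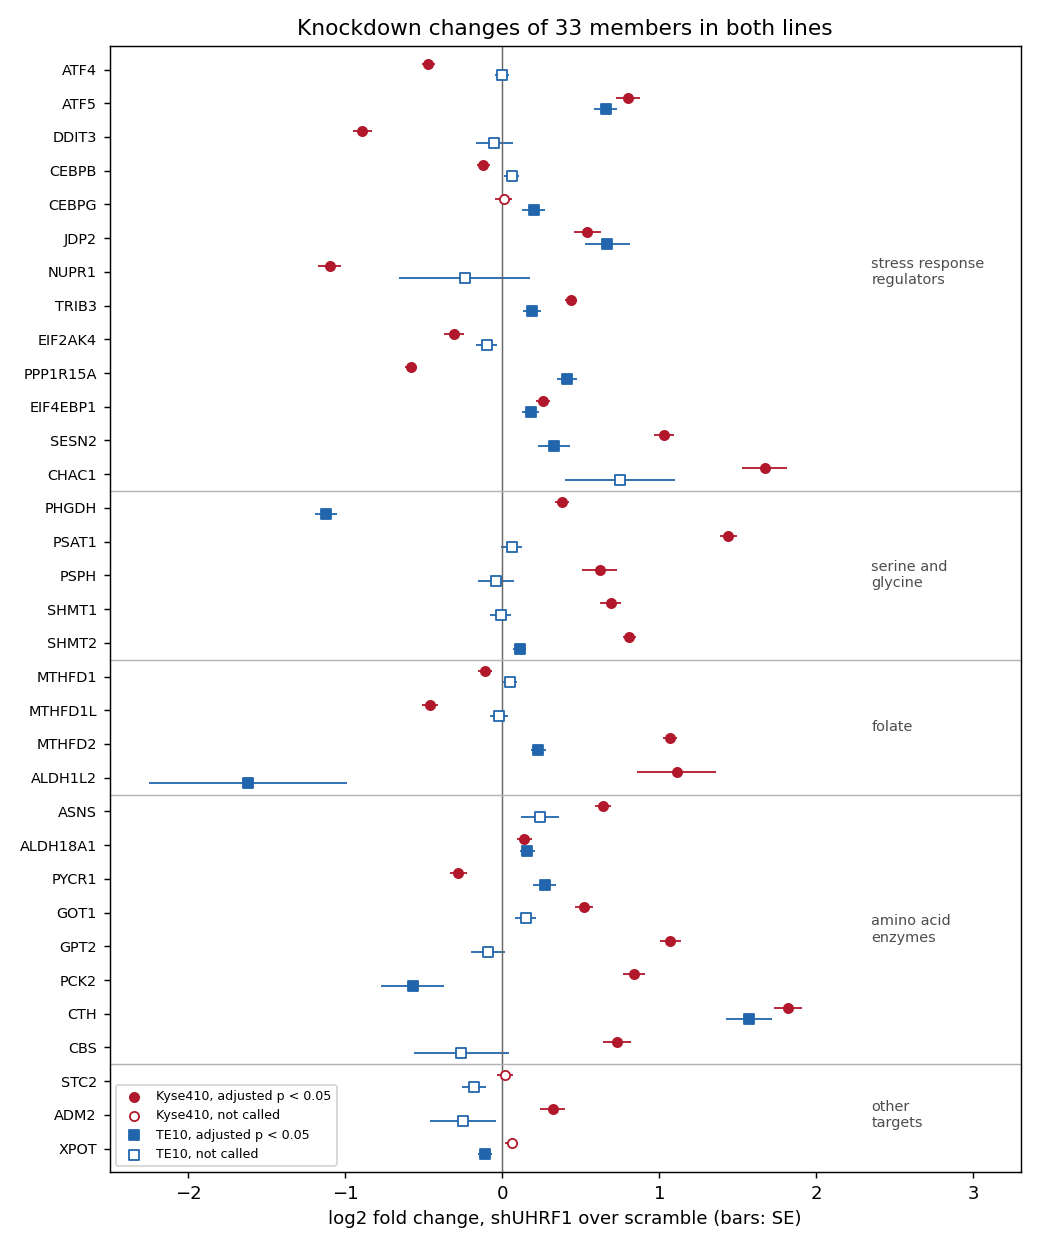
Log2 fold change with UHRF1 silencing of each member tested, with circles for shUHRF1 over scramble in Kyse410, squares for the same in TE10, filled symbols for an edgeR adjusted p under 0.05 and bars for the SE. All 5 serine and glycine genes lie above 0 with filled symbols in Kyse410, while in TE10 PHGDH lies at −1.12 and PSAT1, PSPH and SHMT1 have open symbols near 0.

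All 5 genes of serine and glycine synthesis rose in Kyse410. PSAT1, the aminotransferase of the middle step of serine synthesis, had 147.6, 147.7 and 158.4 CPM in Kyse410 shUHRF1 libraries, against 54.9, 55.2 and 57.1 CPM in Kyse410 scramble libraries. Every shUHRF1 library lay above every scramble library, and the log2 fold change was 1.44 (SE 0.056, adjusted p in edgeR = 5.73e-28). PHGDH, the dehydrogenase of the committed first step, had 321.9, 299.9 and 300.8 CPM in Kyse410 shUHRF1 libraries, against 241, 230.3 and 237.4 CPM in Kyse410 scramble libraries. Its groups did not overlap either, but the change was smaller, at 0.38 (SE 0.0425, adjusted p in edgeR = 8.23e-11). PSPH, the phosphatase that releases serine, had 20.8, 17.2 and 19.3 CPM in Kyse410 shUHRF1 libraries, against 12.4, 12.8 and 12.1 CPM in Kyse410 scramble libraries. The 3 shUHRF1 values again lay above the scramble values, with a log2 fold change of 0.62 (SE 0.112, adjusted p in edgeR = 5.9e-06). The mitochondrial hydroxymethyltransferase SHMT2, which splits serine into glycine and a folate-bound carbon unit, had 282.7, 276.2 and 278.1 CPM in Kyse410 shUHRF1 libraries, against 160.2, 158.4 and 158.6 CPM in Kyse410 scramble libraries. The libraries of a group differed little (SD 3.34 CPM in shUHRF1 and 0.958 CPM in scramble), and the log2 fold change was 0.81 (SE 0.041, adjusted p in edgeR = 3.29e-23). Its cytosolic counterpart SHMT1 had 60.4, 63.6 and 57.9 CPM in Kyse410 shUHRF1 libraries, against 38.8, 38.5 and 35.9 CPM in Kyse410 scramble libraries. SHMT1 was thus higher in all 3 shUHRF1 libraries, by 0.69 (SE 0.069, adjusted p in edgeR = 3.22e-12) on the log2 scale.

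**Figure D2:**
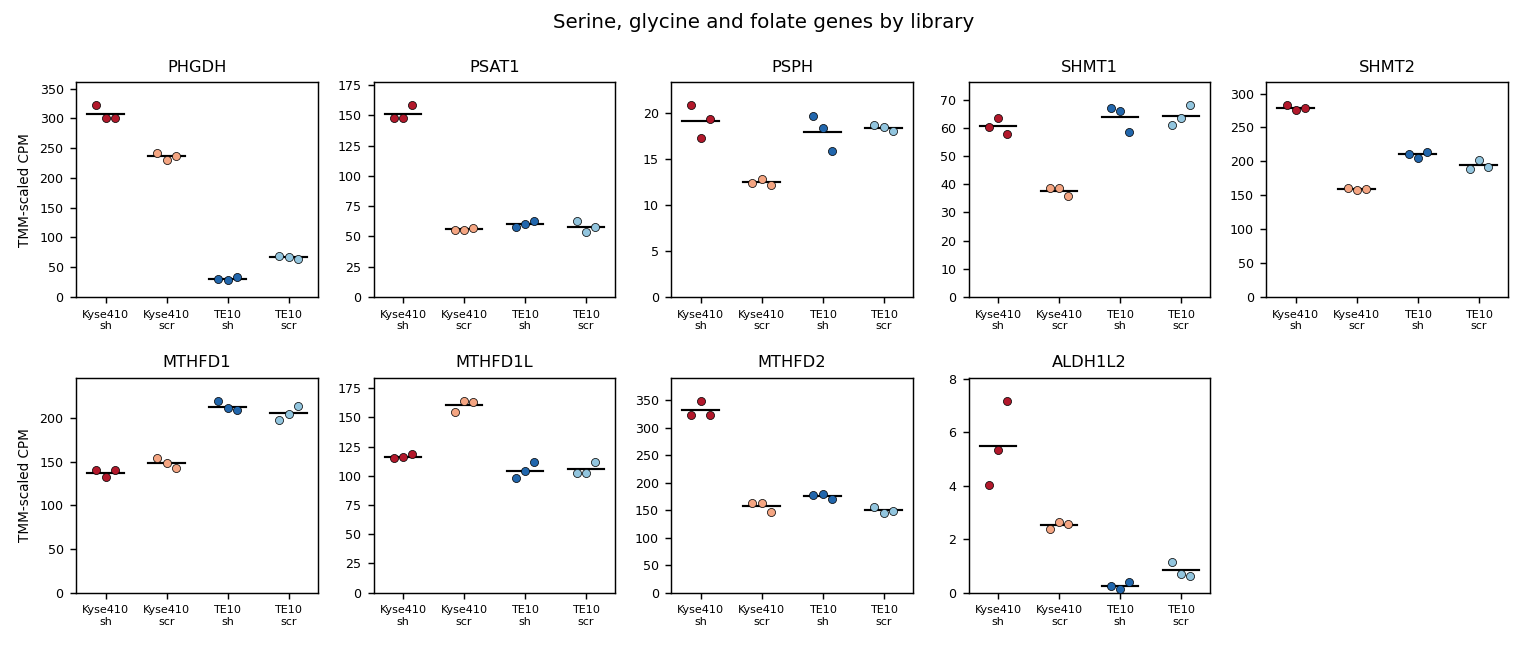
Levels (TMM-scaled CPM, linear axes from 0) of the serine, glycine and folate enzymes in each of the 12 libraries, by group (sh for shUHRF1, scr for scramble), with points for the 3 libraries of a group and a line at their mean. PSAT1 and MTHFD2 stand apart in Kyse410 shUHRF1, with means of 151.2 and 331.1 CPM, and PHGDH is lowest in TE10 shUHRF1, at 30.7 CPM.

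The 4 folate enzymes divided in Kyse410. MTHFD2, the mitochondrial dehydrogenase and cyclohydrolase, had 322.8, 348.1 and 322.3 CPM in Kyse410 shUHRF1 libraries, against 163.7, 162.2 and 146.3 CPM in Kyse410 scramble libraries. No values overlapped, and the log2 fold change was 1.07 (SE 0.0446, adjusted p in edgeR = 9.69e-27). SLC4A5, whose annotated exons lie opposite part of MTHFD2, averaged 8.68 CPM in shUHRF1 and 3.24 CPM in scramble cells. Its log2 fold change was 1.44 (SE 0.194), and its part in the MTHFD2 value was not tested. ALDH1L2, the mitochondrial enzyme that oxidises formyl-folate, was scarce, with 4.01, 5.32 and 7.16 CPM in Kyse410 shUHRF1 libraries, against 2.36, 2.65 and 2.56 CPM in Kyse410 scramble libraries. The shUHRF1 values varied among themselves but stayed above the scramble values, and it rose by 1.11 (SE 0.25, adjusted p in edgeR = 0.000187). MTHFD1L, the mitochondrial ligase that releases formate, went the other way, with 115, 116.1 and 118.2 CPM in Kyse410 shUHRF1 libraries, against 154.3, 163.9 and 163 CPM in Kyse410 scramble libraries. All its shUHRF1 values were below all scramble values, at −0.46 (SE 0.0491, adjusted p in edgeR = 1.85e-11). The trifunctional cytosolic enzyme MTHFD1 had 140.5, 132.1 and 140.1 CPM in Kyse410 shUHRF1 libraries, against 154, 148.8 and 143.1 CPM in Kyse410 scramble libraries. The values stood close together and the log2 fold change was only −0.11 (SE 0.0459, adjusted p in edgeR = 0.0353).

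Of the 8 genes grouped as asparagine, proline, transamination and cysteine enzymes, with PCK2 placed among them, 7 rose in Kyse410 and PYCR1 fell. CTH, the lyase that forms cysteine from cystathionine, showed the largest rise of all members, with 53.3, 56.7 and 52.8 CPM in Kyse410 shUHRF1 libraries, against 15, 13.7 and 17.4 CPM in Kyse410 scramble libraries. The lowest shUHRF1 value was far above the highest scramble value, and the log2 fold change was 1.82 (SE 0.0908, adjusted p in edgeR = 1.84e-23). CBS, the synthase one step before it, had 49.7, 41.7 and 47.2 CPM in Kyse410 shUHRF1 libraries, against 26.7, 30.2 and 27 CPM in Kyse410 scramble libraries. It rose in all 3 libraries, by 0.73 (SE 0.0913, adjusted p in edgeR = 2.11e-09). ASNS, the asparagine synthetase whose promoter run is printed above, had 165.8, 162.7 and 176.8 CPM in Kyse410 shUHRF1 libraries, against 110.3, 109.6 and 104.3 CPM in Kyse410 scramble libraries. Here too the groups were apart, with a log2 fold change of 0.64 (SE 0.0526, adjusted p in edgeR = 4.46e-15). GPT2, the mitochondrial alanine aminotransferase, had 82.5, 84.2 and 79.9 CPM in Kyse410 shUHRF1 libraries, against 37.9, 38.8 and 40.8 CPM in Kyse410 scramble libraries. All shUHRF1 values lay above the scramble values, and it rose by 1.07 (SE 0.0683, adjusted p in edgeR = 3.49e-19). PCK2, the mitochondrial phosphoenolpyruvate carboxykinase, had 82.2, 78.2 and 79.8 CPM in Kyse410 shUHRF1 libraries, against 44.9, 43.5 and 45.6 CPM in Kyse410 scramble libraries. The groups were well separated, at 0.84 (SE 0.0714, adjusted p in edgeR = 1.15e-14). GOT1, the cytosolic aspartate aminotransferase, rose by 0.52 (SE 0.0576) to a mean of 113.1 ± 3.07 CPM in shUHRF1, against 79 ± 4.3 CPM in scramble cells. The proline enzymes split, with a small rise of 0.14 (SE 0.0486) in ALDH18A1, the enzyme that starts proline synthesis from glutamate, and a fall of PYCR1, the mitochondrial reductase that ends it. PYCR1 had 99.3, 98.6 and 98.6 CPM in Kyse410 shUHRF1 libraries, against 124.2, 110 and 125.5 CPM in Kyse410 scramble libraries. The tight shUHRF1 values lay below all scramble values, at −0.28 (SE 0.0537, adjusted p in edgeR = 1.61e-05). AC145207.4, annotated opposite part of PYCR1, changed by −0.26 on the log2 scale (SE 0.0868) and its part in the PYCR1 value was not tested.

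**Figure D3:**
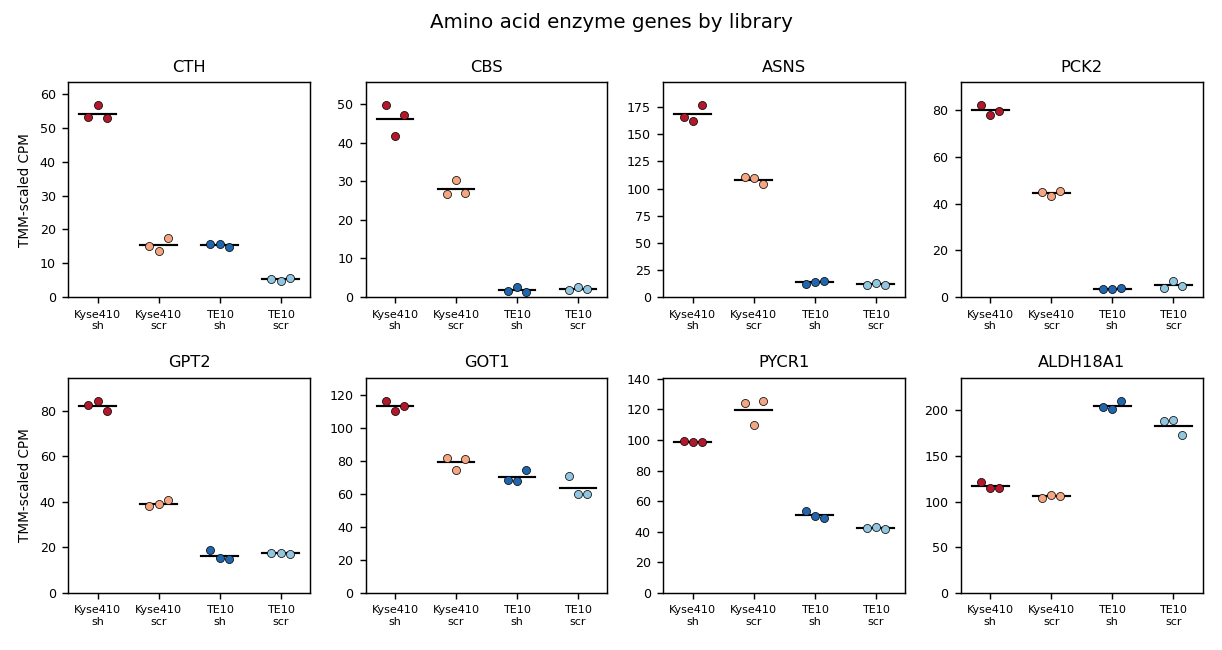
Levels (TMM-scaled CPM, linear axes from 0) of the 8 genes grouped as asparagine, proline, transamination and cysteine enzymes, PCK2 included, in each library by group. Points are the 3 libraries of a group, with a line at their mean. CTH is higher with the shRNA in both lines, with means of 54.3 CPM in Kyse410 shUHRF1 and 15.4 CPM in Kyse410 scramble, and 15.5 CPM in TE10 shUHRF1 and 5.18 CPM in TE10 scramble.

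Among the 13 transcription factors and regulators of the stress response, 6 rose, 6 fell and CEBPG did not pass the test in Kyse410. ATF4 had 436.1, 394 and 384.5 CPM in Kyse410 shUHRF1 libraries, against 577, 558.9 and 549.3 CPM in Kyse410 scramble libraries. Each shUHRF1 library was below each scramble library, with a log2 fold change of −0.47 (SE 0.0402, adjusted p in edgeR = 1.4e-14). DDIT3, which encodes the stress factor CHOP, had 71.3, 64.7 and 63.9 CPM in Kyse410 shUHRF1 libraries, against 119.3, 125.3 and 127.3 CPM in Kyse410 scramble libraries. No values overlapped, and it fell by 0.89 (SE 0.0606, adjusted p in edgeR = 3.8e-18). MARS, whose exons lie opposite part of DDIT3, had means of 397.7 CPM in shUHRF1 and 378.4 CPM in scramble cells, a log2 fold change of 0.07 that did not pass the test. NUPR1, a small stress-induced chromatin protein, had 45.3, 40.4 and 40.8 CPM in Kyse410 shUHRF1 libraries, against 89, 95.1 and 87.5 CPM in Kyse410 scramble libraries. It fell by 1.10 (SE 0.071, adjusted p in edgeR = 5.41e-19), the largest fall among the members in this line. PPP1R15A encodes GADD34, the phosphatase subunit that returns eIF2 to its active form, and had 539.2, 485.6 and 491.7 CPM in Kyse410 shUHRF1 libraries, against 775.2, 742.3 and 745 CPM in Kyse410 scramble libraries. The groups were apart by far more than their spread, at −0.58 (SE 0.0392, adjusted p in edgeR = 4.02e-18). EIF2AK4, which encodes the amino acid sensing eIF2 kinase GCN2, fell by 0.31 (SE 0.0639), to 55.4 ± 1.59 CPM in shUHRF1, against 68.8 ± 1.86 CPM in scramble cells. CEBPB, a C/EBP partner of ATF4, differed little, at −0.12 (SE 0.0406).

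The 6 regulators that rose in Kyse410 included feedback and growth control genes. CHAC1, a glutathione-degrading enzyme whose promoter run is printed above, had 24.6, 22.4 and 20.3 CPM in Kyse410 shUHRF1 libraries, against 5.36, 6.73 and 9.19 CPM in Kyse410 scramble libraries. The scramble values were low and varied among themselves, yet all lay below the shUHRF1 values, and the log2 fold change was 1.67 (SE 0.143, adjusted p in edgeR = 1.53e-14). SESN2, a leucine-binding inhibitor of mTORC1 signalling, had 85.2, 80.2 and 84.4 CPM in Kyse410 shUHRF1 libraries, against 42.2, 39.9 and 40.3 CPM in Kyse410 scramble libraries. Its level in every shUHRF1 library was far above the scramble range, at 1.03 (SE 0.0662, adjusted p in edgeR = 5.48e-19). The ATF4-related factor ATF5 had 47.6, 44.9 and 47.1 CPM in Kyse410 shUHRF1 libraries, against 28.2, 29.5 and 22.6 CPM in Kyse410 scramble libraries. It rose in all 3 libraries by 0.80 (SE 0.0786, adjusted p in edgeR = 1.78e-12), while NUP62 on the opposite strand changed by 0.17 (SE 0.0542). TRIB3, a pseudokinase that restrains ATF4 and AKT, rose by 0.44 (SE 0.0391), JDP2, a bZIP repressor with the element next to its start, by 0.54 (SE 0.0857), and EIF4EBP1, the translation inhibitor 4E-BP1, by 0.26 (SE 0.0435). Their groups did not overlap. CEBPG, another C/EBP partner of ATF4 with the element in its promoter window, had 126.6 ± 1.41 CPM in shUHRF1 and 126.2 ± 7.94 CPM in scramble cells, a log2 fold change of 0.01 with a 95% interval of −0.10 to 0.11.

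**Figure D4:**
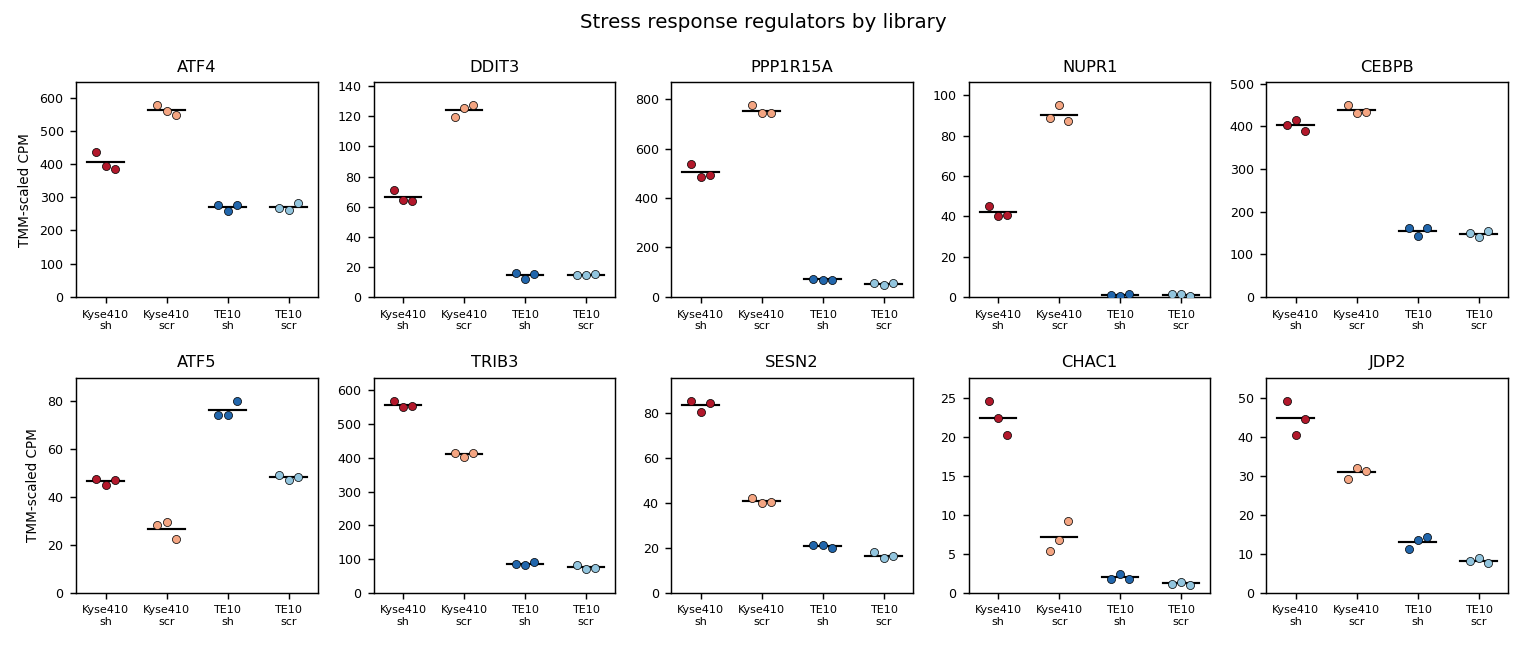
Levels (TMM-scaled CPM, linear axes from 0) of 10 of the 13 transcription factors and regulators of the stress response in each library by group, with points for the 3 libraries of a group and a line at their mean. ATF4, DDIT3, NUPR1 and PPP1R15A are highest in Kyse410 scramble and lower in Kyse410 shUHRF1, and NUPR1 stays at or below 1.29 CPM in every TE10 library.

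The remaining target genes moved little in Kyse410. ADM2, which encodes the secreted peptide intermedin, had 52.1, 44.5 and 52.6 CPM in Kyse410 shUHRF1 libraries, against 38.7, 40.3 and 39.9 CPM in Kyse410 scramble libraries. It was higher in all 3 shUHRF1 libraries, by 0.32 (SE 0.0788, adjusted p in edgeR = 0.000502). STC2, a secreted glycoprotein, had a log2 fold change of 0.02 (95% interval −0.08 to 0.13) and XPOT, the exporter of tRNA from the nucleus, one of 0.06 (−0.02 to 0.15), and neither passed the test. Of the 30 calls in Kyse410, 27 were kept under every alternative setting and with any library compared left out. ALDH18A1 missed the threshold without shUHRF1 replicate 1 (adjusted p = 0.055) or scramble replicate 1 (0.0567), and CEBPB without shUHRF1 replicate 3 (0.0704) or scramble replicate 1 (0.0594). MTHFD1 missed it without shUHRF1 replicate 2 (adjusted p = 0.346), scramble replicate 1 (0.18) or scramble replicate 2 (0.0686) and with 4 other settings. XPOT passed it without shUHRF1 replicate 1 (log2 fold change 0.11, adjusted p = 0.0376) or scramble replicate 2 (0.12, 0.0281).

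The same comparison in TE10 gave fewer and smaller changes among these genes, and most genes of the serine route did not rise. CTH, ATF5 and JDP2 were higher in TE10 shUHRF1 cells, PPP1R15A was higher as well, and PHGDH was lower. Of 33 members tested, 16 passed the edgeR test (48.5%), 12 higher and 4 lower, where 38.8% of all genes passed, 18.8% higher and 20% lower. At a change of at least 1.5-fold as well, 3 members were higher and 2 lower, where 13% of all genes were called, 4.69% higher and 8.26% lower. The median log2 fold change over the members was 0.06, against 0 over all genes, and the median absolute value was 0.19 against 0.24.

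PHGDH changed most among the serine and glycine genes of TE10. It had 29.6, 28.9 and 33.7 CPM in TE10 shUHRF1 libraries, against 69.4, 67.3 and 63.9 CPM in TE10 scramble libraries. All shUHRF1 values were under the lowest scramble value, with 46% of the scramble level left and a log2 fold change of −1.12 (SE 0.0697, adjusted p in edgeR = 2.8e-19). PSAT1, the next enzyme, had 58.1, 60.4 and 62.5 CPM in TE10 shUHRF1 libraries, against 62.5, 53.8 and 57.9 CPM in TE10 scramble libraries. These groups overlapped, and the log2 fold change of 0.06 had a 95% interval of −0.08 to 0.19. For PSPH the change was −0.04 (−0.27 to 0.20) and for SHMT1 −0.01 (−0.15 to 0.13), neither passing the test. SHMT2 was slightly higher, with 211.2, 205.4 and 214 CPM in TE10 shUHRF1 libraries, against 188.9, 201.8 and 191.8 CPM in TE10 scramble libraries. The groups did not overlap, but the difference of 0.11 (SE 0.043, adjusted p in edgeR = 0.0304) was small.

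Of the folate enzymes in TE10, MTHFD2 rose and ALDH1L2 fell. MTHFD2 had 178, 179.4 and 169.3 CPM in TE10 shUHRF1 libraries, against 155.8, 145.5 and 147.5 CPM in TE10 scramble libraries. The shUHRF1 values all lay above the scramble values, at 0.23 (SE 0.0492, adjusted p in edgeR = 0.000126). ALDH1L2 was close to the limit of detection, with 2, 1 and 3 reads in TE10 shUHRF1 libraries, against 9, 6 and 6 reads in TE10 scramble libraries. Its scaled values did not overlap, and the log2 fold change was −1.62 (SE 0.632, adjusted p in edgeR = 0.0366). MTHFD1 and MTHFD1L did not pass the test, with log2 fold changes of 0.05 (95% interval −0.04 to 0.14) and −0.02 (−0.13 to 0.09).

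CTH was the amino acid enzyme with the largest change in TE10. It had 15.8, 15.8 and 14.9 CPM in TE10 shUHRF1 libraries, against 5.17, 4.75 and 5.61 CPM in TE10 scramble libraries. Every shUHRF1 library held far more than every scramble library, with a log2 fold change of 1.57 (SE 0.145, adjusted p in edgeR = 3.98e-13). The proline enzymes PYCR1 and ALDH18A1 both rose, by 0.27 (SE 0.0717) and 0.16 (SE 0.046), without overlap between groups. PCK2 was low in this line, with 3.44, 3.45 and 3.71 CPM in TE10 shUHRF1 libraries, against 3.88, 6.89 and 4.87 CPM in TE10 scramble libraries. Scramble replicate 2 stood above the other scramble libraries, and the log2 fold change was −0.57 (SE 0.202, adjusted p in edgeR = 0.0217). ASNS, GOT1, GPT2 and CBS did not pass the test, with log2 fold changes of 0.24, 0.15, −0.09 and −0.26.

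Of the 13 stress regulators, 7 rose in TE10 and the other 6 did not pass the test. ATF4 had 277.5, 260.1 and 276 CPM in TE10 shUHRF1 libraries, against 268, 262.8 and 282.4 CPM in TE10 scramble libraries. The groups overlapped fully, and the log2 fold change was 0.00 with a 95% interval of −0.09 to 0.09. PPP1R15A had 71.9, 69.5 and 70.2 CPM in TE10 shUHRF1 libraries, against 54.9, 48.3 and 56.2 CPM in TE10 scramble libraries. Its groups were apart, with a rise of 0.41 (SE 0.0629, adjusted p in edgeR = 4.54e-07). ATF5 had 74.2, 74.1 and 80 CPM in TE10 shUHRF1 libraries, against 49.1, 47.1 and 48.1 CPM in TE10 scramble libraries. That rise, of 0.66 (SE 0.0731, adjusted p in edgeR = 1e-10), was also free of overlap, and NUP62 on the opposite strand changed by 0.05 (SE 0.0502). JDP2 was low, with 11.1, 13.5 and 14.3 CPM in TE10 shUHRF1 libraries, against 8.01, 8.91 and 7.62 CPM in TE10 scramble libraries. It rose in all 3 shUHRF1 libraries, by 0.67 (SE 0.141, adjusted p in edgeR = 0.000128). SESN2, TRIB3, CEBPG and EIF4EBP1 rose by 0.33 (SE 0.102), 0.19 (SE 0.0564), 0.20 (SE 0.075) and 0.18 (SE 0.0571), with overlap between the groups for TRIB3 and CEBPG. CHAC1 had means of 1.98 ± 0.391 CPM in shUHRF1 and 1.18 ± 0.237 CPM in scramble cells, a log2 fold change of 0.75 that did not pass the test (95% interval 0.04 to 1.46). DDIT3, NUPR1, CEBPB and EIF2AK4 did not pass it either, with changes of −0.05, −0.24, 0.06 and −0.10. MARS, opposite part of DDIT3, rose by 0.30 (SE 0.0447), and its part in the DDIT3 value was not tested. Among the other targets XPOT fell by 0.11 (SE 0.0461), and STC2 (−0.18) and ADM2 (−0.25) did not pass.

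Of the 16 TE10 calls, 8 were kept under every alternative and with any library compared left out: the rises of ATF5, JDP2, PPP1R15A, EIF4EBP1, MTHFD2, PYCR1 and CTH and the fall of PHGDH. The number of members called lower was 1 without shUHRF1 replicate 1, and 2 without shUHRF1 replicate 2, scramble replicate 1 or scramble replicate 2. ALDH1L2 missed the threshold without shUHRF1 replicate 1 (adjusted p = 0.0898), shUHRF1 replicate 2 (0.138) or scramble replicate 1 (0.147) and with DESeq2 (0.0594). PCK2 missed it without scramble replicate 2 (log2 fold change −0.32, adjusted p = 0.285), shUHRF1 replicate 1 (0.0777) or shUHRF1 replicate 2 (0.0562). XPOT missed it without shUHRF1 replicate 1 (log2 fold change −0.04, adjusted p = 0.587), shUHRF1 replicate 3 (0.0718) or scramble replicate 1 (0.23), 2 (0.0525) or 3 (0.0628). SHMT2 missed it without shUHRF1 replicate 3 (0.105), scramble replicate 1 (0.136) or scramble replicate 3 (0.101), and CEBPG without shUHRF1 replicate 2 (0.0666), scramble replicate 1 (0.081) or scramble replicate 2 (0.176). TRIB3 missed it without shUHRF1 replicate 3 (0.0696) or scramble replicate 2 (0.0579), SESN2 without scramble replicate 2 (0.0539) and ALDH18A1 without scramble replicate 3 (0.0621). With all libraries, XPOT missed the threshold with DESeq2 (0.194) or RLE scaling in place of TMM (0.125), and PCK2 with only the libraries compared (0.0592). With no filter, SHMT2 (0.12) and CEBPG (0.0516) missed it. GOT1 passed it with RLE scaling (0.0322), and STC2 with no filter (0.0425) or mitochondrial genes left out (0.0474). ASNS passed it without shUHRF1 replicate 1 (log2 fold change 0.37, adjusted p = 0.0223), as did GOT1 (0.20, 0.031), which also passed without scramble replicate 1 (0.23, 0.00896), and STC2 passed without shUHRF1 replicate 3 (−0.25, 0.0141).

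The response was then compared between the lines as the difference of the log2 fold changes, Kyse410 minus TE10, tested in the same fit. All 5 serine and glycine genes had the higher change in Kyse410, as did MTHFD2, ALDH1L2 and most amino acid enzymes, while ATF4, DDIT3 and PPP1R15A had the lower one. Of 33 members, 23 differed at an adjusted p of 0.05 (69.7%), 16 with the higher change in Kyse410 and 7 with the lower, where 38.9% of all genes differed, 19% and 19.9% in these directions. With a difference of at least 1.5-fold as well, there were 11 and 2 members, where 17.9% of all genes were counted, 10.9% and 7.02% in these directions. The median difference was 0.25 on the log2 scale over the members and −0.01 over all genes.

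PHGDH differed by 1.5 (SE 0.0817, adjusted p in edgeR = 2.26e-21), with a rise in Kyse410 and a fall in TE10, and PSAT1 by 1.38 (SE 0.0869, adjusted p in edgeR = 7.24e-19). The other genes of the route differed by 0.70 (SE 0.0975) for SHMT1, 0.70 (SE 0.0594) for SHMT2 and 0.66 (SE 0.161) for PSPH. Among folate enzymes ALDH1L2 had the largest and least precise difference, 2.73 (SE 0.672, adjusted p in edgeR = 0.000867), followed by MTHFD2 at 0.84 (SE 0.0664), while MTHFD1L differed by −0.44 (SE 0.0738) and MTHFD1 by −0.17 (SE 0.0643). PCK2, GPT2, CBS, ASNS and GOT1 differed upward, by 1.41 (SE 0.213), 1.16 (SE 0.128), 0.98 (SE 0.318), 0.40 (SE 0.132) and 0.36 (SE 0.0884), and PYCR1 by −0.55 (SE 0.0896). Of the regulators, PPP1R15A showed the widest difference, −0.98 (SE 0.0741, adjusted p in edgeR = 5.69e-16), with a fall in Kyse410 and a rise in TE10. DDIT3 and ATF4 differed by −0.84 (SE 0.132) and −0.47 (SE 0.0598), CEBPB by −0.19 (SE 0.0639), SESN2 by 0.70 (SE 0.122) and TRIB3 by 0.25 (SE 0.0686). MARS, opposite DDIT3, differed by −0.23 (SE 0.0589). ADM2 and XPOT differed by 0.57 (SE 0.227) and 0.17 (SE 0.0631).

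Of the tested members, 10 missed the threshold for a difference between lines, among them 4 with rises in both lines that every alternative kept. CTH differed by 0.25 (95% interval −0.12 to 0.61), ATF5 by 0.13 (−0.08 to 0.35), JDP2 by −0.13 (−0.46 to 0.20) and EIF4EBP1 by 0.08 (−0.07 to 0.22), intervals that leave room for a difference. For NUPR1, which fell in Kyse410 and was near 1 CPM in TE10, the difference of −0.87 had the wide interval −1.74 to 0.01. ALDH18A1 differed by −0.02, CEBPG by −0.20, EIF2AK4 by −0.21, STC2 by 0.20 and CHAC1 by 0.93, all short of the threshold. Counted by their calls, 9 members were higher in both lines (ATF5, JDP2, TRIB3, EIF4EBP1, SESN2, SHMT2, MTHFD2, ALDH18A1 and CTH), which are 9 of the 21 higher in Kyse410 and 9 of the 12 higher in TE10. Of all 16060 genes tested, 6.96% were called higher in both lines. Opposite calls were made for 5 members: PHGDH, ALDH1L2 and PCK2 were higher in Kyse410 and lower in TE10, and PPP1R15A and PYCR1 were lower in Kyse410 and higher in TE10. The TE10 calls of ALDH1L2 and PCK2 rested on few reads and were lost under some alternatives, as given above. Both calls of PHGDH, PPP1R15A and PYCR1 were kept under every alternative. Opposite calls were made for 7.92% of all genes, 3.63% in the direction of PHGDH and 4.29% in that of PYCR1.

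Of the 23 differences, 17 were kept under every alternative and with any library left out. ADM2 missed the threshold with 8 of the 12 libraries left out in turn: TE10 shUHRF1 replicate 1 (adjusted p = 0.0817), 2 (0.0523) or 3 (0.0932), TE10 scramble replicate 1 (0.0721) or 3 (0.136), Kyse410 shUHRF1 replicate 1 (0.0625) or 3 (0.0683) or Kyse410 scramble replicate 1 (0.06). MTHFD1 missed it without TE10 shUHRF1 replicate 1 (0.0733), TE10 scramble replicate 1 (0.116) or 2 (0.0666), Kyse410 shUHRF1 replicate 2 (log2 difference −0.11, adjusted p = 0.203) or Kyse410 scramble replicate 1 (0.119) or 2 (0.0554). CEBPB missed it without TE10 shUHRF1 replicate 1 (0.0529) or 3 (0.0649), TE10 scramble replicate 2 (0.092), Kyse410 shUHRF1 replicate 3 (0.0549) or Kyse410 scramble replicate 1 (0.0511). XPOT missed it without TE10 shUHRF1 replicate 1 (0.122), TE10 scramble replicate 1 (0.0958), Kyse410 shUHRF1 replicate 3 (0.0955) or Kyse410 scramble replicate 1 (0.0775) or 3 (0.0993). CBS missed it without TE10 shUHRF1 replicate 1 (0.0529) or 3 (0.0547) or TE10 scramble replicate 2 (0.0822), and ASNS without TE10 shUHRF1 replicate 1 (0.0906) or TE10 scramble replicate 2 (0.0741). With all libraries, ADM2 missed the threshold with DESeq2 (0.0713) or no filter (0.0707), MTHFD1 with no filter (0.139) and XPOT with DESeq2 (0.0705). CHAC1 passed the threshold without TE10 shUHRF1 replicate 2 (0.0396), Kyse410 shUHRF1 replicate 3 (0.0485) or Kyse410 scramble replicate 3 (0.0152), and CEBPG without TE10 scramble replicate 3 (0.02). EIF2AK4 passed it without TE10 shUHRF1 replicate 1 (0.0225) or TE10 scramble replicate 3 (0.0312), and STC2 without TE10 shUHRF1 replicate 3 (0.022), Kyse410 shUHRF1 replicate 2 (0.041) or 3 (0.0464) or Kyse410 scramble replicate 1 (0.0387).

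Between the scramble controls, Kyse410 had the higher level of most members, most stress regulators and amino acid enzymes among them, whereas most serine and glycine genes were lower or did not differ by the test. Kyse410 scramble libraries enter both this comparison and the Kyse410 knockdown comparison, and TE10 scramble libraries enter both this one and the TE10 comparison, so their values are not independent. Of 33 members, 30 differed (90.9%), 24 higher and 6 lower in Kyse410, where 73.7% of all genes differed, 36.7% higher and 37.1% lower. At 1.5-fold or more, 22 were higher and 3 lower, where 49% of all genes differed, 25% higher and 24% lower. The median log2 difference was 1.5 over the members and 0 over all genes, and all 30 calls were kept under every alternative and with any library compared left out.

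**Figure D5:**
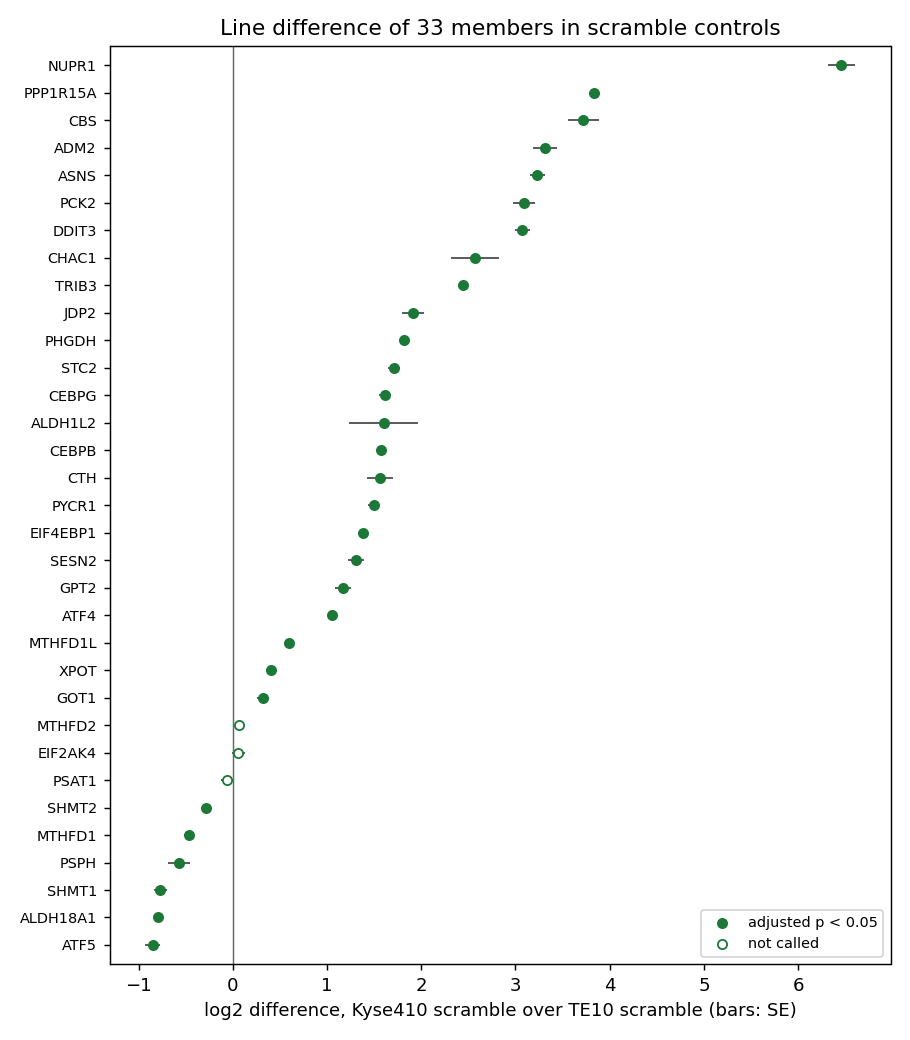
Log2 difference between scramble controls, Kyse410 minus TE10, for each member tested, with filled points for an edgeR adjusted p under 0.05 and bars for the SE. NUPR1 (6.46) and PPP1R15A (3.83) lie farthest above 0, and ATF5 (−0.85) and ALDH18A1 (−0.79) farthest below.

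Of the 13 regulators, 11 were higher in Kyse410 scramble cells. NUPR1 had 89, 95.1 and 87.5 CPM in Kyse410 scramble libraries, against 1.29, 1.19 and 0.635 CPM in TE10 scramble libraries. The TE10 values came from 10, 10 and 6 reads, and the log2 difference was 6.46 (SE 0.144). PPP1R15A had 775.2, 742.3 and 745 CPM in Kyse410 scramble libraries, against 54.9, 48.3 and 56.2 CPM in TE10 scramble libraries. The lines were far apart, at 3.83 (SE 0.0506, adjusted p in edgeR = 3.74e-50). DDIT3 and CHAC1 were higher in Kyse410 by 3.07 (SE 0.0799) and 2.57 (SE 0.256), TRIB3 by 2.44 (SE 0.0477), and the bZIP genes JDP2, CEBPG and CEBPB by 1.91 (SE 0.117), 1.62 (SE 0.0636) and 1.57 (SE 0.0448). ATF4 had 577, 558.9 and 549.3 CPM in Kyse410 scramble libraries, against 268, 262.8 and 282.4 CPM in TE10 scramble libraries. The lines did not overlap, at 1.05 (SE 0.0419, adjusted p in edgeR = 1.36e-28). EIF4EBP1 and SESN2 were higher by 1.38 (SE 0.0504) and 1.31 (SE 0.0866), and ATF5 was lower in Kyse410, at −0.85 (SE 0.0807). NUP62, opposite part of ATF5, differed by −0.98 (SE 0.0524) between the same libraries, and MARS, opposite part of DDIT3, by 1.23 (SE 0.0419). Their part in the ATF5 and DDIT3 values was not tested. EIF2AK4 did not pass the test, at 0.06 (95% interval −0.07 to 0.19).

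The serine and glycine genes did not follow the regulators at baseline. PHGDH alone was higher in Kyse410 scramble cells, with 241, 230.3 and 237.4 CPM in Kyse410 scramble libraries, against 69.4, 67.3 and 63.9 CPM in TE10 scramble libraries. No values overlapped, at 1.82 (SE 0.051, adjusted p in edgeR = 1.63e-35). SHMT1, PSPH and SHMT2 were lower in Kyse410, at −0.77 (SE 0.0705), −0.57 (SE 0.116) and −0.29 (SE 0.0428), and PSAT1 had 55.8 ± 1.2 CPM in Kyse410 scramble and 58.1 ± 4.35 CPM in TE10 scramble cells, which did not differ by the test (95% interval −0.19 to 0.07). Among folate enzymes ALDH1L2 and MTHFD1L were higher in Kyse410 (1.60 (SE 0.367) and 0.60 (SE 0.051)), MTHFD1 was lower (−0.47 (SE 0.0452)), and MTHFD2 did not pass, at 0.07. MTHFD2 passed without Kyse410 scramble replicate 3 (log2 difference 0.12, adjusted p = 0.0306) or with RLE scaling (0.1, 0.0466).

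Amino acid enzymes showed wide gaps between the scramble controls. CBS had 26.7, 30.2 and 27 CPM in Kyse410 scramble libraries, against 1.68, 2.62 and 2.01 CPM in TE10 scramble libraries. It was higher in Kyse410 in every library, at 3.72 (SE 0.163, adjusted p in edgeR = 8.29e-27). ASNS had 110.3, 109.6 and 104.3 CPM in Kyse410 scramble libraries, against 11, 12.6 and 10.9 CPM in TE10 scramble libraries. That difference was 3.23 (SE 0.0808, adjusted p in edgeR = 1.04e-37). PCK2 was higher by 3.09 (SE 0.116), CTH by 1.56 (SE 0.138), PYCR1 by 1.5 (SE 0.062), GPT2 by 1.17 (SE 0.0881) and GOT1 by 0.32 (SE 0.0634). ALDH18A1 was lower, at −0.79 (SE 0.0476). AC145207.4, opposite part of PYCR1, was higher by 1.2 (SE 0.0996), and its part in the PYCR1 difference was not tested. All 3 tested target genes of the remaining kind were higher in Kyse410, ADM2 by 3.31 (SE 0.126), STC2 by 1.71 (SE 0.0611) and XPOT by 0.40 (SE 0.0444).

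Levels were compared between members per length, as mean CPM per kilobase of annotated exons. The length joins all annotated exons of a gene and can exceed that of its message, so the order of members depends on it. In Kyse410 scramble cells PPP1R15A stood at 243.8, CEBPB at 224.3, ATF4 at 223.4, EIF4EBP1 at 175.1 and TRIB3 at 119.5 CPM per kilobase. In TE10 scramble cells the highest were ATF4 at 107.8, CEBPB at 75.8 and EIF4EBP1 at 67.2, and PPP1R15A stood at 17.2 CPM per kilobase. On this scale PSAT1 stood at 69.1, PHGDH at 33.4 and PSPH at 6.92 CPM per kilobase in Kyse410 shUHRF1 cells. In Kyse410 scramble cells PSAT1 stood at 25.5 and PHGDH at 25.6 CPM per kilobase. The lengths used were 9217 bases for PHGDH and 2188 for PSAT1, and their order turns on these lengths. Before division by length, PHGDH averaged 307.5 CPM and PSAT1 151.2 CPM in Kyse410 shUHRF1, and 236.3 and 55.8 CPM in Kyse410 scramble. In TE10 shUHRF1 cells PSAT1 stood at 27.6 and PHGDH at 3.33 CPM per kilobase, against 26.6 and 7.25 in TE10 scramble cells. Before that division the TE10 scramble means were 58.1 CPM for PSAT1 and 66.8 CPM for PHGDH.

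Other genes of the same pathways were counted in 5 lists chosen by known role, to be read beside the shares and medians of all genes given above. Of 18 genes of eIF2 kinases, initiation factors, phosphatase subunits and related regulators, 4 rose and 7 fell in Kyse410. In TE10, 4 rose and 3 fell, and the median log2 fold changes were −0.08 in Kyse410 and 0.02 in TE10. EIF2AK3, the endoplasmic reticulum kinase PERK, was lower in both lines, at −0.43 (SE 0.0824) in Kyse410 and −0.57 (SE 0.112) in TE10. Of 21 tested bZIP factors and stress targets linked to ATF4, 7 rose and 7 fell in Kyse410, and 3 rose and 6 fell in TE10, with medians of −0.05 and −0.08. GDF15, a secreted stress hormone, averaged 965.5 ± 20 CPM in Kyse410 shUHRF1 and 1546.3 ± 51.3 CPM in Kyse410 scramble, and 75.1 ± 1.99 CPM in TE10 shUHRF1 and 21.7 ± 2.16 CPM in TE10 scramble. It thus fell in Kyse410 (−0.68 (SE 0.035)) and rose in TE10 (1.80 (SE 0.0682)). DDIT4, an mTORC1 inhibitor, did the opposite, with 0.70 (SE 0.0405) in Kyse410 and −0.76 (SE 0.0482) in TE10. ATF3, a bZIP factor of the same stress response, fell by 1.54 (SE 0.0469) in Kyse410, where the liver stress hormone gene FGF21 rose by 1.26 (SE 0.238). TRIB2 fell in both lines, by 1.47 (SE 0.157) in TE10 and by 0.65 (SE 0.147) in Kyse410.

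In the folate and purine list of 24 tested genes, 6 rose and 8 fell in Kyse410, and 2 rose and 4 fell in TE10, with medians of −0.05 and −0.02. The folate receptor gene FOLR1 rose by 0.90 (SE 0.207) and the thymidylate synthase gene TYMS by 0.48 (SE 0.0535) in Kyse410, where the mitochondrial folate carrier SLC25A32 fell by 0.44 (SE 0.0643). Of 16 tested genes of the methionine cycle and glutathione synthesis, 7 rose and 2 fell in Kyse410, and 6 rose and 3 fell in TE10, with medians of 0.16 and 0.13. MAT2A, which makes S-adenosylmethionine, averaged 535.2 ± 13.1 CPM in Kyse410 shUHRF1 and 202.2 ± 2.55 CPM in Kyse410 scramble, a rise of 1.40 (SE 0.038, adjusted p in edgeR = 7.43e-35). GCLM and GCLC, the subunits of the enzyme that starts glutathione synthesis, rose in TE10 by 0.90 (SE 0.0703) and 0.95 (SE 0.0745), and GCLM rose in Kyse410 by 0.66 (SE 0.115). Of 21 tested proline, glutamate, aspartate and branched-chain enzymes, 7 rose and 5 fell in Kyse410, and 3 fell in TE10 (5 were called there without shUHRF1 replicate 3), with medians of 0.01 and −0.05. BCAT1, the cytosolic branched-chain aminotransferase, was lower in both lines, at −0.67 (SE 0.0932) in Kyse410 and −0.71 (SE 0.111) in TE10.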

How the data were processed

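Polyadenylated RNA of 12 libraries was measured, 3 in each of 4 groups, and the groups were taken from the sample titles. The deposited files hold raw counts of reads per gene, 1 file per library, with HTSeq's counters of unassigned reads at the end. Per the submitters' processing notes, the build was GRCh37.p13 and the tools included HTSeq 0.9.1, HISAT2 2.1.0, DESeq2 and bcl2fastq 2.19. Which annotation and strand setting were used is not given in the sources used here. Between 42.9 and 44.7% of a library's reads had no feature, and these stayed out of library sizes. Of the 57820 identifiers, 52338 were matched to GENCODE symbols (99.02% of gene reads), and the symbol of UHRF1 was set by hand for ENSG00000034063.

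Counts were analysed with edgeR 4.0.16 in R 4.3.3, filtered by filterByExpr (16060 genes), scaled by TMM, and fitted over all 12 libraries with a mean per group (8 residual degrees of freedom). Benjamini-Hochberg adjustment of the quasi-likelihood p-values ran over all genes, with a gene called under 0.05. Standard errors were derived from the F statistic, and 95% intervals are per gene and not adjusted. Alternatives were RLE scaling, no filter, DESeq2 1.42.0, the replicate number as a block, only the libraries compared, mitochondrial genes left out, and each library left out. Tables and plots used matplotlib 3.10.9, SciPy 1.17.1, numpy 2.4.6 and pandas 2.3.3 under Python 3.11.15. Chi-square values per degree of freedom for pairs of replicates were 1.58 to 3.07, so replicates differed by more than counting error and none were merged.

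The members and lists were chosen with earlier results of these data known. All members are named, and from each list up to 2 called genes per direction and knockdown comparison with the largest change and a mean of at least 5 CPM could be named. Exon lengths and overlaps come from GENCODE 29, which is of another build, so gene positions are not given. Promoter sequences come from RefSeq (GRCh38.p14). ALDH1L2, NUPR1, CHAC1 and CBS had few reads in TE10, which widens their errors there. Reads of pseudogene copies cannot always be told from those of the parent gene. Of the 23 copies named after members, XPOTP1 averaged 38.08 reads a library, PSPHP1 29 and ATF4P3 11.17, and the others held fewer. PSPH itself had 119 to 228 reads a library, and the part of its copy in the PSPH values was not tested.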

Additional observations from a re-analysis of the deposited data

Results flagged for a closer look

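The change with UHRF1 silencing differed between Kyse410 and TE10 for 23 members by the test of the difference itself, and each is given here as the difference of log2 fold changes, Kyse410 minus TE10. Among serine, glycine and folate genes the differences were 1.5 for PHGDH, 1.38 for PSAT1, 0.66 for PSPH, 0.70 for SHMT1, 0.70 for SHMT2, 0.84 for MTHFD2, 2.73 for ALDH1L2, −0.44 for MTHFD1L and −0.17 for MTHFD1. Among regulators they were −0.47 for ATF4, −0.84 for DDIT3, −0.98 for PPP1R15A, −0.19 for CEBPB, 0.25 for TRIB3 and 0.70 for SESN2. Among amino acid enzymes and other targets they were 1.41 for PCK2, 1.16 for GPT2, 0.98 for CBS, 0.40 for ASNS, 0.36 for GOT1, −0.55 for PYCR1, 0.57 for ADM2 and 0.17 for XPOT.

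A further 5 genes of the pathway lists differed between the lines in the same test. GDF15 differed by −2.48 (SE 0.0765, adjusted p in edgeR = 2.46e-31), ATF3 by −1.61 (SE 0.114, adjusted p in edgeR = 5.63e-17), DDIT4 by 1.46 (SE 0.0629, adjusted p in edgeR = 2.04e-25) and MAT2A by 1.5 (SE 0.0526, adjusted p in edgeR = 3.92e-29). FOLR1 differed by 2.16 (SE 0.387, adjusted p in edgeR = 8.82e-06). It averaged 8.54 ± 0.549 CPM in Kyse410 shUHRF1, 4.55 ± 0.759 CPM in Kyse410 scramble, 1.5 ± 0.5 CPM in TE10 shUHRF1 and 3.72 ± 1.94 CPM in TE10 scramble. The TE10 values came from 11, 16 and 8 reads in shUHRF1 and 44, 31 and 17 reads in scramble libraries, and those groups overlapped. No cause of these differences was tested.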

How the results depend on the processing

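No member called in any of the 4 comparisons changed direction under an alternative run. The number of members called lower in TE10, 4 as reported, was 2 with only the libraries compared, 2 with DESeq2, and 1 to 4 with 1 library left out. For the list of proline, glutamate, aspartate and branched-chain enzymes, the count of genes that differed between the lines, 5 as reported, was 3 with DESeq2 and 3 to 6 with 1 library left out, and the count called in TE10, 3 as reported, was 2 to 5. The causes were not tested. The other counts of members and of list genes stayed within 1.5 times, and the alternatives, libraries left out included, moved the median of all genes by at most 0.034 on the log2 scale. Of the single-gene values under alternatives, 2691 kept their side of the threshold, 100 lost it and 26 gained it. The labels do not say whether replicate numbers pair the samples. Same-numbered deviations had correlations between −0.012 and 0.037, so no shared deviation was seen, which does not settle how the samples were made. With the replicate number as a block, 21 members were called higher and 9 lower in Kyse410, 12 and 5 in TE10, 16 and 8 for the difference, and 24 and 6 between the scramble controls. The block added STC2 in TE10 (log2 fold change −0.18, adjusted p = 0.0367) and EIF2AK4 for the difference (−0.22, 0.0494). Where a group was left with 2 libraries, the fit shared its spread with the other groups. Depth limited ALDH1L2, NUPR1, CHAC1 and CBS in TE10, where low reads gave wide intervals, and VLDLR, which could not be tested.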

Other observations

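The pathway lists were also read between the scramble controls, Kyse410 over TE10, where 36.7% of all genes were higher and 37.1% lower. Of 21 tested bZIP factors and stress targets linked to ATF4, 18 were higher in Kyse410 and 2 lower, with a median log2 difference of 2.12. GDF15 averaged 1546.3 ± 51.3 CPM in Kyse410 scramble and 21.7 ± 2.16 CPM in TE10 scramble cells (6.16 (SE 0.0532)). The list of eIF2 kinases, initiation factors and related regulators leaned the other way, with 4 of 18 genes higher and 13 lower and a median of −0.51. EIF2B1, a subunit of the eIF2 exchange factor, averaged 39.8 ± 1.55 CPM in Kyse410 scramble and 110.8 ± 2.6 CPM in TE10 scramble cells (−1.48 (SE 0.0601)), while PPP1R15B, the constitutive partner of the eIF2 phosphatase, was higher, at 1.23 (SE 0.0468). Of 24 folate and purine genes, 3 were higher and 17 lower, with a median of −0.53, and the purine enzyme gene PAICS differed by −1.36 (SE 0.0428).

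Of 16 methionine and glutathione genes, 6 were higher and 9 lower in Kyse410, with a median of −0.43. GCLM averaged 9.61 ± 0.581 CPM in Kyse410 scramble and 57.3 ± 3.74 CPM in TE10 scramble cells (−2.57 (SE 0.0954)), and MAT2A differed by −1.47 (SE 0.0383). Of 21 proline, glutamate, aspartate and branched-chain enzymes, 8 were higher and 10 lower, with a median of −0.09, and ASS1, the argininosuccinate synthase, was higher in Kyse410 by 2.36 (SE 0.0391). The single genes here were picked with their values in view.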
